A study of Mus musculus with 6 samples.

Results

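Cell cycle and DNA replication genes were followed through 6 RNA-seq libraries of mouse large intestine. The set holds 42 genes chosen by name, all of them among the 35434 genes of the deposited table: 13 of DNA replication, 21 of mitosis, and 8 cyclins, cyclin-dependent kinases (CDKs) and CDK inhibitors that act mainly around G1. The study transferred regulatory T cells (Tregs) into mice with inflammatory bowel disease, and these Tregs were either controls or had been treated with lenvatinib, an inhibitor of several receptor tyrosine kinases. By title there are 3 libraries of int 3 and 3 of int 2, but the link between these numbers and the Treg transfers is not stated in the labels. Every difference below is therefore int 3 minus int 2, without a treatment name. All mice of both groups had the bowel disease and received Tregs; strain, sex and age are not given in the sources used here, nor how the disease was induced. Separate animals are not stated either, and p-values thus measure only the spread between these libraries, which may be technical.

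A dividing cell passes from G1 into S phase, copies its DNA, and then separates the chromosomes in mitosis. D-type and E-type cyclins with their CDKs release the E2F transcription factors, which switch on the replication genes, while mitotic genes are switched on later, through a promoter element called the cell cycle genes homology region (CHR) together with CCAAT boxes. In the large intestine most dividing cells are the transit-amplifying cells of the lower crypt, and B cells of lymphoid follicles and activated immune cells divide as well.

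Promoter sequences are printed because the results are given apart for replication genes and mitosis genes, whose promoters are known for different elements. RefSeq promoters (GRCm38.p6; from 250 bases before to 50 bases after the start of the gene) were matched by symbol for 33 of the 42 members, with 36 promoters. CHR letters (TTTGAA or TTCGAA, either strand) stood in 15 of 18 promoters of mitosis genes (83.3%), against 19.2% of all 32851 promoters in that table. A CCAAT box (CCAAT, either strand) stood in 17 of the 18 (94.4%) and in 9 of 12 promoters of replication genes (75%), against 37.4% of all promoters. E2F letters (either TTCCCGC or TTGGCGC or TTGCCGC or TTCGCGC, on either strand) stood in 9 of 12 promoters of replication genes (75%), in 3 of 18 of mitosis genes (16.7%) and in 9.57% of all promoters. CHR letters stood in 2 of the 12 replication promoters (16.7%). These are matches of letters and not bound sites. CHR letters also stood in mitosis genes that did not pass, among them Ccnb2, Cdc20 and Plk1. In the Cdk1 sequence below, 2 E2F matches are left in lower case. Below, 3 promoters of mitosis genes that fell carry CHR letters and CCAAT boxes in capitals, and overlapping matches run together. They are Cdk1 at chr10:69352863-69353162 (reverse strand), Ube2c at chr2:164769679-164769978 (forward strand) and Top2a at chr11:99024140-99024439 (reverse strand), each read 5′ to 3′ along the gene.
Cdk1: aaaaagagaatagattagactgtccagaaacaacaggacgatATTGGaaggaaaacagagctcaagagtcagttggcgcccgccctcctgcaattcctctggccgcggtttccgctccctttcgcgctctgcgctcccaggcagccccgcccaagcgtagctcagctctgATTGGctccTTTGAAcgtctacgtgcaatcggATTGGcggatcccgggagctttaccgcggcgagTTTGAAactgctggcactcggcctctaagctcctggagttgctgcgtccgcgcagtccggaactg
Ube2c: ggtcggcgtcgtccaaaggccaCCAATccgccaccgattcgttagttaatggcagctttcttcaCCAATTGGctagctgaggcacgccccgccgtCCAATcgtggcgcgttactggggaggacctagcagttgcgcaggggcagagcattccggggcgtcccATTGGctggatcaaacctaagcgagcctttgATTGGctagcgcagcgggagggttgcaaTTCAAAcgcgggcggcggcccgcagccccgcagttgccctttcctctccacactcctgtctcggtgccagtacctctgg
Top2a: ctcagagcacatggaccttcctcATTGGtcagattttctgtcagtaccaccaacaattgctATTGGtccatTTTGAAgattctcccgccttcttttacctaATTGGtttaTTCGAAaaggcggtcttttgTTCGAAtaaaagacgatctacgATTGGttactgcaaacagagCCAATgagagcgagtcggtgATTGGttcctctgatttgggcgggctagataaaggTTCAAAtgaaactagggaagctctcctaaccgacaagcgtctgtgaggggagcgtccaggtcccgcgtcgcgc
Next come 2 promoters of replication genes that stood highest in int 3-2, with E2F letters and CCAAT boxes in capitals. They are Mcm3 at chr1:20820263-20820562 (reverse strand) and Rrm2 at chr12:24708004-24708303 (forward strand).
Mcm3: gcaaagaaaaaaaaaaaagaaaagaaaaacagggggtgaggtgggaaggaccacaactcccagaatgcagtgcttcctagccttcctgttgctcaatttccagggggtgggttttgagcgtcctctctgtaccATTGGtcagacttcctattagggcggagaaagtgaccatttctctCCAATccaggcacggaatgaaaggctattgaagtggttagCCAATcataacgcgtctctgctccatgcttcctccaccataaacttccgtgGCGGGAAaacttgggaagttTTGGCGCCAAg
Rrm2: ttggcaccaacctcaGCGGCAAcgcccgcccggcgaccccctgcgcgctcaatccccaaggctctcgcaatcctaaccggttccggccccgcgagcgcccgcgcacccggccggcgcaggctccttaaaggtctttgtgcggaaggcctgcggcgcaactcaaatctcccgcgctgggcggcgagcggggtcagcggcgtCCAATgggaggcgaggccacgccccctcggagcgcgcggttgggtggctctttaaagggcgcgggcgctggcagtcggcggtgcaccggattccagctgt

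The int 3 libraries lay farther apart than the int 2 libraries. Depth was even, at 34.0 to 35.1 M fragments (M, 1e6) in int 3 and 34.2 to 34.4 M in int 2, as recovered from the step sizes in the FPKM table (FPKM counts fragments per kilobase and per 1e6 fragments). Over the 12525 genes tested, the SD of the log2 difference between 2 libraries was 0.271 to 0.513 within int 3 and 0.110 to 0.115 within int 2. Int 2 libraries still differed by more than sampling of fragments (mean chi-square per gene 2.56 to 3.02, where sampling alone gives 1), and were kept as 3. Hoxb13, taken as the marker of position and a gene of the hind end of the bowel, measured 146 FPKM in int 3-1, 16.4 in int 3-2 and 267 in int 3-3, against 288 in int 2-1, 285 in int 2-2 and 288 in int 2-3 (adjusted p = 0.266, limma). Of the other 4 genes of the distal position list none had groups apart; Hoxd13 and Hoxa13 are named after their values were seen. Hoxd13 measured 14.2 FPKM in int 3-1, 0.286 in int 3-2 and 26.4 in int 3-3, against 11.1 in int 2-1, 10.1 in int 2-2 and 9.8 in int 2-3. Hoxa13 measured 12.1 FPKM in int 3-1, 10.1 in int 3-2 and 15.3 in int 3-3, against 11.7 in int 2-1, 11.6 in int 2-2 and 10.5 in int 2-3. All 5 were lowest in int 3-2. Int 3-1 lay between int 3-2 and int 3-3 in 34 of the 42 members, and in 73.5% of all tested genes. The SD of the log2 difference was 0.302 between int 3-1 and int 3-2, 0.271 between int 3-1 and int 3-3, and 0.513 between int 3-2 and int 3-3. Whether int 3-1 is independent of int 3-2 and int 3-3 was not tested, and n = 3 may overstate the size of this group. Results that turn on int 3-2 or int 3-3 are therefore given with and without them.

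Mitosis genes were lower in int 3 than in int 2, and the ratio of their mean summed FPKM was 0.819. A gene is said here to have risen or fallen only where it passed limma's test on log2(FPKM + 1) with adjusted p under 0.05 over all 12525 tested genes. Of the 21 mitosis genes 8 fell, 0 rose and 13 did not pass. Among all tested genes 6.70% fell and 8.64% rose (15.3% in either direction), and the split of those that passed was 56.3% higher, or 67.2% higher with the values rescaled to TPM. The 3 int 3 values lay below all 3 int 2 values in 17 of the 21 (81.0%), where this held for 17.9% of all tested genes and 40.4% had groups apart in either direction. The median log2 difference of the mitosis genes was -0.25, and that of all tested genes 0.034. Summed over the 21 genes, the level was 314 FPKM in int 3-1, 287 in int 3-2 and 325 in int 3-3, against 380.5 in int 2-1, 374 in int 2-2 and 376 in int 2-3. In bulk tissue fewer dividing cells and less of these transcripts per cell cannot be told apart.

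**Figure D1:**
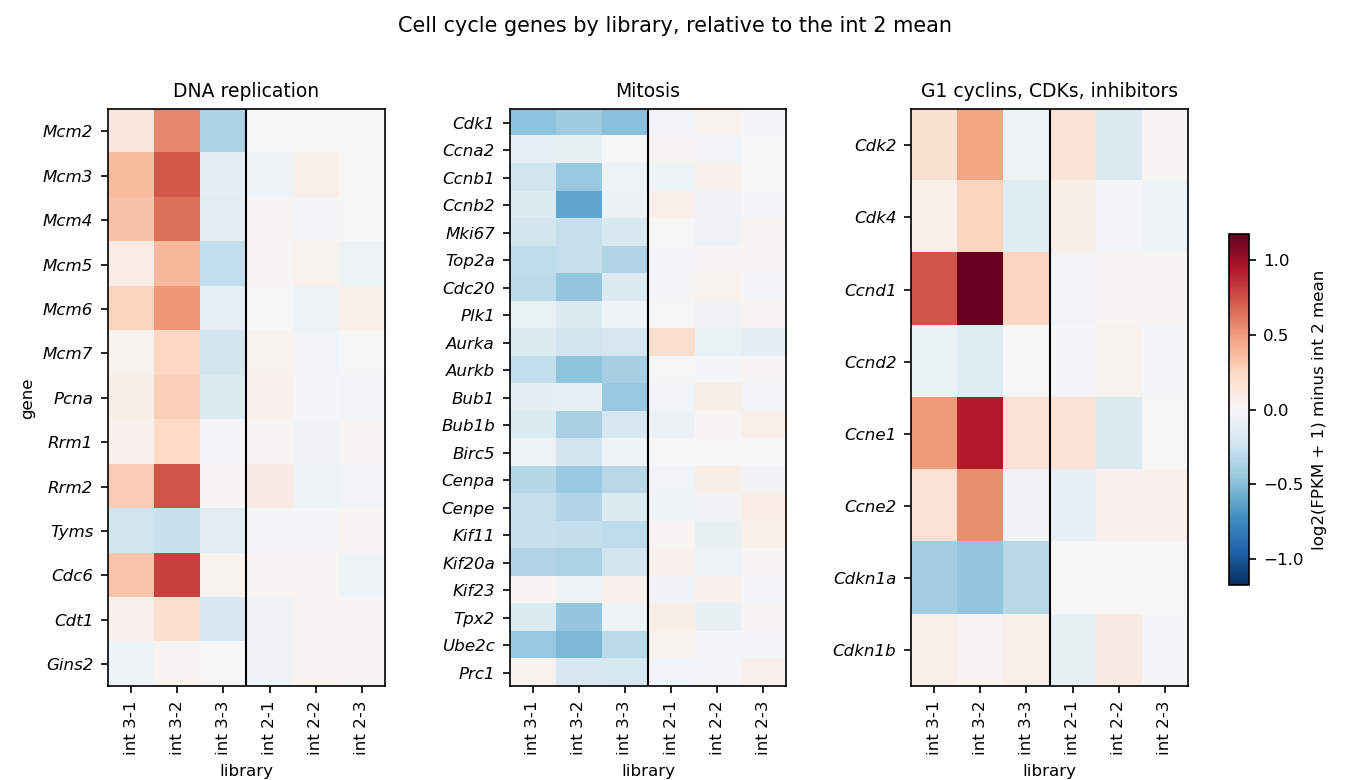
Each cell is one gene in one library, coloured by log2(FPKM + 1) minus the gene's int 2 mean, with the 3 int 3 libraries left of the line and the 3 int 2 libraries right of it. Mitosis genes are mostly blue in all of int 3, while replication genes other than Tyms and Gins2 are red in int 3-2 and pale or blue in int 3-3.

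The CDK that drives entry into mitosis showed the lowest fitted difference of the set. Cdk1 stood at 9.03 FPKM in int 3-1, 9.47 in int 3-2 and 8.91 in int 3-3, against 12.7 in int 2-1, 13.4 in int 2-2 and 12.8 in int 2-3. The groups did not overlap, and the ratio of the means was 0.704 (log2 difference -0.46, SE 0.053, adjusted p = 0.00362, n = 3 libraries each, limma). Cdk1 also passed in all 16 alternative settings. Its partners the B-type cyclins were lower without passing. Ccnb1 stood at 14.8 FPKM in int 3-1, 12.7 in int 3-2 and 16.8 in int 3-3, against 16.97 in int 2-1, 18.3 in int 2-2 and 17.6 in int 2-3 (adjusted p = 0.151). Ccnb2 stood at 27.97 FPKM in int 3-1, 20.3 in int 3-2 and 30.04 in int 3-3, against 32.9 in int 2-1, 30.5 in int 2-2 and 31.1 in int 2-3 (adjusted p = 0.226), and in both genes int 3-2 was the lowest of the 6 libraries. Ccna2, the cyclin of S phase and G2, differed little, at 26.6 ± 1.01 FPKM in int 3, against 27.8 ± 0.686 in int 2 (SD, n = 3 each), and its groups overlapped. Its small difference of -0.061 turned to 0.0070 with TPM.

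Ube2c fell and Cdc20 did not pass. Ube2c encodes the ubiquitin-conjugating enzyme that works with the anaphase-promoting complex, and was the most abundant mitosis gene, at 57.1 FPKM in int 3-1, 53.99 in int 3-2 and 62.5 in int 3-3, against 80.8 in int 2-1, 77.2 in int 2-2 and 76.9 in int 2-3. All int 3 values were below all int 2 values (log2 difference -0.43, SE 0.065, adjusted p = 0.00924, limma). Cdc20, an activator of that complex, stood at 22.4 FPKM in int 3-1, 20.1 in int 3-2 and 25.1 in int 3-3, against 27.7 in int 2-1, 28.9 in int 2-2 and 27.8 in int 2-3. It missed the threshold narrowly (log2 difference -0.31, adjusted p = 0.0542), although its groups did not overlap.

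Of the members used as general markers of dividing cells, Mki67 and Top2a fell, while Pcna and Mcm2, given below, did not pass. Mki67, the Ki-67 antigen present in all active phases of the cycle, stood at 15.3 FPKM in int 3-1, 14.7 in int 3-2 and 15.7 in int 3-3, against 17.9 in int 2-1, 17.4 in int 2-2 and 18.3 in int 2-3. Its int 3 values were close to each other and all below int 2 (log2 difference -0.22, SE 0.050, adjusted p = 0.0347, limma), with a ratio of means of 0.851. Top2a, the topoisomerase that untangles sister chromatids, stood at 19.7 FPKM in int 3-1, 20.2 in int 3-2 and 18.9 in int 3-3, against 24.1 in int 2-1, 24.7 in int 2-2 and 24.7 in int 2-3. That is a ratio of 0.7996, again without overlap (log2 difference -0.31, SE 0.047, adjusted p = 0.00973, limma). Mki67 passed in 8 of 16 alternative settings and Top2a in 10.

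Of Cenpa, Cenpe, Bub1 and Bub1b, which act at centromeres and kinetochores, Cenpa fell and the other 3 did not pass. Cenpa, the histone H3 variant that marks centromeres, stood at 19.3 FPKM in int 3-1, 18.01 in int 3-2 and 19.4 in int 3-3, against 24.1 in int 2-1, 25.9 in int 2-2 and 23.99 in int 2-3 (log2 difference -0.37, SE 0.057, adjusted p = 0.0104, limma). No int 3 library reached int 2. Cenpe, a kinetochore motor, averaged 2.44 ± 0.22 FPKM in int 3, against 3.11 ± 0.224 in int 2 (adjusted p = 0.0778). Bub1b, a spindle checkpoint protein, averaged 7.73 ± 0.689 FPKM in int 3, against 9.34 ± 0.462 in int 2 (adjusted p = 0.0831). Bub1, a checkpoint kinase, was 1 of 5 mitosis genes with int 3-3 as the lowest library: it stood at 3.34 FPKM in int 3-1, 3.38 in int 3-2 and 2.43 in int 3-3, against 3.57 in int 2-1, 3.88 in int 2-2 and 3.56 in int 2-3.

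Of the mitotic kinases Aurkb fell and Aurka and Plk1 did not pass. Aurkb, the kinase of the chromosomal passenger complex, stood at 10.7 FPKM in int 3-1, 9.33 in int 3-2 and 9.96 in int 3-3, against 13.4 in int 2-1, 13.1 in int 2-2 and 13.5 in int 2-3 and fell (log2 difference -0.38, SE 0.063, adjusted p = 0.012, limma). Its complex partner Birc5, survivin, averaged 11.95 ± 0.881 FPKM in int 3, against 12.97 ± 0.0685 in int 2 and did not pass (adjusted p = 0.283). Aurka, the kinase of spindle poles, averaged 8.22 ± 0.205 FPKM in int 3, against 9.65 ± 1.22 in int 2, and Tpx2, its activator, 8.45 ± 1.29 FPKM in int 3, against 10.002 ± 0.654 in int 2; neither passed (adjusted p = 0.176 for Aurka and 0.217 for Tpx2). Plk1, polo-like kinase, differed by -0.10 on the log2 scale (adjusted p = 0.271).

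Among the motors of the spindle and of cell division, Kif11 and Kif20a fell and Kif23 stayed near 0 difference. Kif11, the motor that pushes spindle poles apart, stood at 6.8 FPKM in int 3-1, 6.69 in int 3-2 and 6.58 in int 3-3, against 8.52 in int 2-1, 7.78 in int 2-2 and 8.76 in int 2-3 (log2 difference -0.28, SE 0.061, adjusted p = 0.0295, limma). Kif20a, a motor of cytokinesis, stood at 5.82 FPKM in int 3-1, 5.71 in int 3-2 and 6.46 in int 3-3, against 8.01 in int 2-1, 7.35 in int 2-2 and 7.76 in int 2-3 (log2 difference -0.32, SE 0.067, adjusted p = 0.0273, limma). In neither gene did an int 3 library reach int 2. Kif23, of the central spindle, averaged 9.08 ± 0.406 FPKM in int 3, against 9.04 ± 0.338 in int 2, and its difference of 0.0062 changed sign under median-of-ratios scaling and quantile normalization. Prc1, which bundles the microtubules of the central spindle, averaged 8.19 ± 0.906 FPKM in int 3, against 8.94 ± 0.318 in int 2, with overlapping groups.

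The number of mitosis genes that passed depended on which libraries were kept. It was 1 without int 2-1, without int 2-2 or without int 2-3, 2 without int 3-1, 9 without int 3-2 and 12 without int 3-3. Over all tested genes 635, 615 and 637 passed without int 2-1, int 2-2 and int 2-3. That total was 642 without int 3-1, 2633 without int 3-2 and 4913 without int 3-3. The median difference of the mitosis genes stayed negative in each of these settings, from -0.20 to -0.29. With TPM 5 passed, and 3 scalings gave medians of -0.18 to -0.30.

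**Figure D2:**
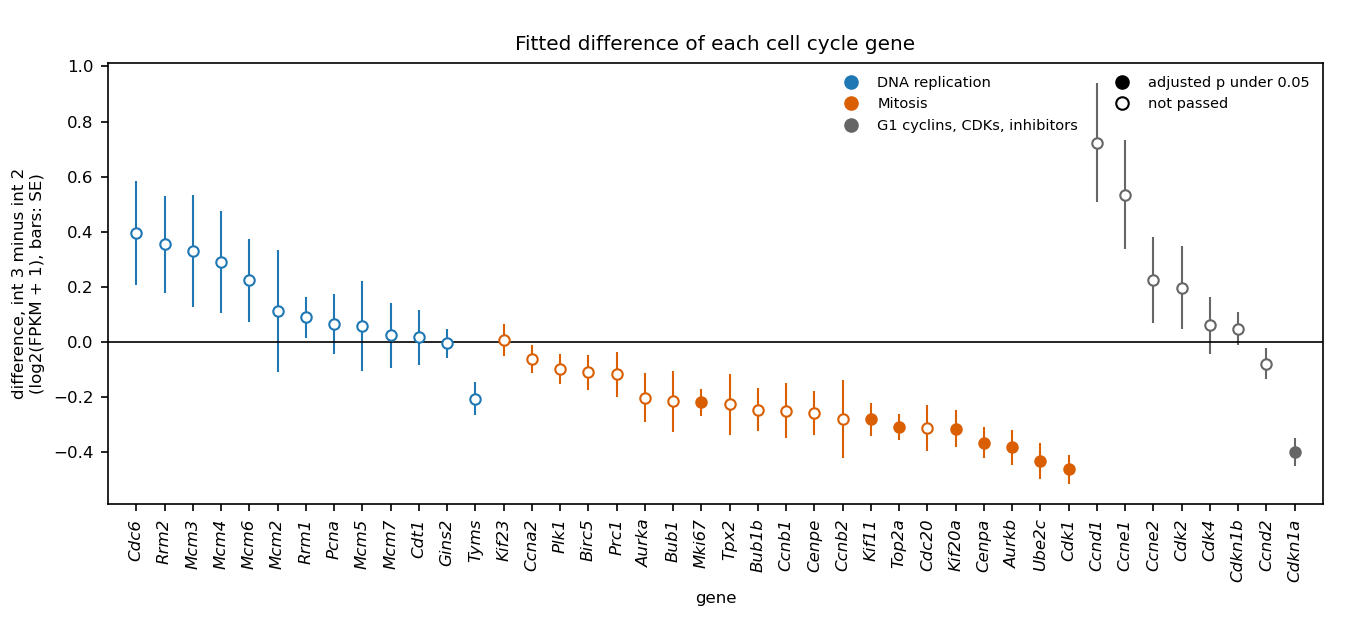
Points are the fitted differences int 3 minus int 2 on log2(FPKM + 1) with their SE, by gene and coloured by role, and filled points passed adjusted p under 0.05. All but one of the 21 mitosis genes lie below 0, and 8 of them and Cdkn1a passed; 11 of 13 replication genes lie above 0 with wide errors and 0 passed.

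Replication genes did not pass in either direction. None of the 13 passed in limma's test with all 6 libraries (unadjusted p was under 0.05 in 1, Tyms, and voom on whole fragments also passed 0). Their median log2 difference was 0.089, and 11 of 13 differences were above 0, as were 56.8% of all tested genes; the count was 12 with TPM, 9 with either other scaling and 6 without int 3-2. Their levels were spread widely within int 3. Summed over the 13 genes the level was 237 FPKM in int 3-1, 283 in int 3-2 and 197 in int 3-3, against 222 in int 2-1, 216 in int 2-2 and 217 in int 2-3. Thus int 3-2 lay above every int 2 library and int 3-3 below every one. In 12 of the 13 genes int 3-2 was the highest of the 6 libraries, as it was in 45.7% of all tested genes.

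The MCM genes encode the 6 subunits of the replicative helicase, and all stood in the same order within int 3. Mcm2 stood at 11.8 FPKM in int 3-1, 16.4 in int 3-2 and 8.03 in int 3-3, against 10.7 in int 2-1, 10.6 in int 2-2 and 10.6 in int 2-3. The int 2 values were nearly equal, while int 3-2 was 2.04 (95% interval 1.88 to 2.21) times int 3-3, an interval that covers counting error only. Mcm3 stood at 13.5 FPKM in int 3-1, 17.5 in int 3-2 and 9.31 in int 3-3, against 9.77 in int 2-1, 10.6 in int 2-2 and 10.1 in int 2-3. Mcm4 stood at 13.4 FPKM in int 3-1, 16.7 in int 3-2 and 9.35 in int 3-3, against 10.4 in int 2-1, 10.1 in int 2-2 and 10.4 in int 2-3. Here int 3-1 and int 3-2 were above int 2, and int 3-3 below it, for both genes. Mcm6 stood at 18.1 FPKM in int 3-1, 21.8 in int 3-2 and 13.9 in int 3-3, against 14.9 in int 2-1, 14.3 in int 2-2 and 15.6 in int 2-3. Mcm5 and Mcm7 had the same order with int 3-2 to int 3-3 ratios of 1.65 (95% interval 1.54 to 1.77) and 1.41 (95% interval 1.32 to 1.5). With n = 3 libraries each, limma's adjusted p for the 6 MCM genes ran from 0.305 for Mcm3 to 0.909 for Mcm7.

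Helicase loading genes varied unequally. Cdc6, which loads the MCM complex onto origins, was the least abundant member and stood at 1.51 FPKM in int 3-1, 2.49 in int 3-2 and 1.05 in int 3-3, against 1.03 in int 2-1, 1.02 in int 2-2 and 0.929 in int 2-3. It had the widest int 3-2 to int 3-3 ratio of all 42 members, 2.36 (95% interval 1.97 to 2.83), and int 3 lay above int 2, without passing (adjusted p = 0.205). Cdt1, its partner in loading, had a ratio of 1.33 (95% interval 1.2 to 1.48). Gins2, a subunit of the GINS complex of the active helicase, was even across all libraries, at 11.5 FPKM in int 3-1, 12.2 in int 3-2 and 11.98 in int 3-3, against 11.6 in int 2-1, 12.2 in int 2-2 and 12.04 in int 2-3. No library stands out in Gins2, and its ratio was 1.02 (95% interval 0.892 to 1.17).

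The sliding clamp and the genes of nucleotide supply differed among the int 3 libraries. Pcna, the clamp that holds the polymerases on DNA, was the most abundant of the 13, at 87.5 FPKM in int 3-1, 101 in int 3-2 and 74.5 in int 3-3, against 86.1 in int 2-1, 81.8 in int 2-2 and 81.5 in int 2-3. Rrm2, the small subunit of ribonucleotide reductase, which makes deoxynucleotides, stood at 12.6 FPKM in int 3-1, 17.4 in int 3-2 and 10.2 in int 3-3, against 10.7 in int 2-1, 9.55 in int 2-2 and 9.75 in int 2-3. Its large subunit Rrm1 varied less: int 3-2 over int 3-3 was 1.71 (95% interval 1.56 to 1.87) for Rrm2 and 1.2 (95% interval 1.13 to 1.27) for Rrm1. Tyms, thymidylate synthase, went the other way from the rest, at 6.44 FPKM in int 3-1, 6.28 in int 3-2 and 7.01 in int 3-3, against 7.66 in int 2-1, 7.67 in int 2-2 and 7.88 in int 2-3. All int 3 values of Tyms were below int 2 (log2 difference -0.21, adjusted p = 0.0666, limma), and int 3-2 was the lowest library.

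Whether the replication genes passed turned on a single library. Without int 3-3, Mcm3, Mcm4, Mcm6, Rrm2 and Cdc6 were higher and Tyms lower (6 of 13 passed; adjusted p 0.0096 to 0.025), at a median difference of 0.23. Without int 3-2, 0 passed and the median was -0.024. Without int 3-1, and without each int 2 library in turn, 0 passed. Over all 12525 tested genes 4913 passed without int 3-3 (median difference 0.068) and 2633 without int 3-2 (median difference 0.0033).

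**Figure D3:**
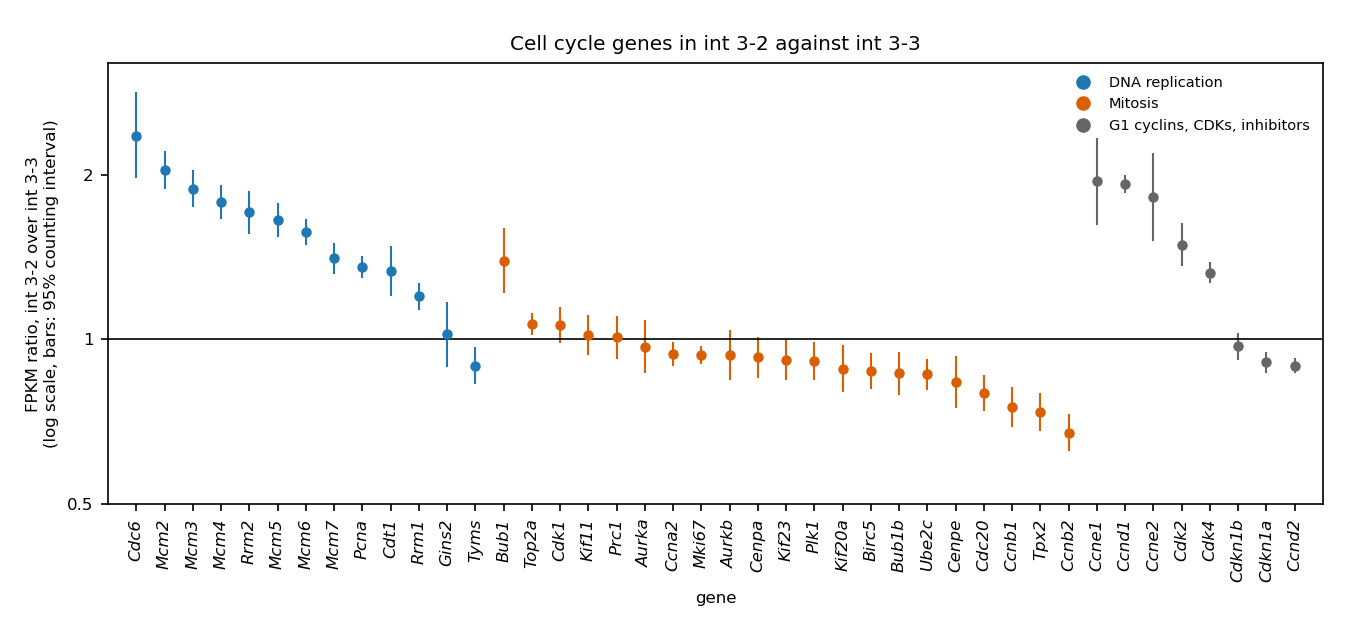
Points are the ratio of FPKM in int 3-2 to int 3-3 for each member on a log scale, with exact 95% intervals from the recovered fragments, which cover counting error only. In 11 of 13 replication genes the interval lies above 1, and in 13 of 21 mitosis genes it lies below 1. The share over all tested genes was not computed.

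Within int 3 the summed FPKM of the replication and mitosis genes ran in opposite orders, which did not hold per 1000 FPKM of epithelial genes, where both were highest in int 3-2 and lowest in int 3-3. The ratio of int 3-2 to int 3-3 had a median of 1.57 over the replication genes and 0.918 over the mitosis genes, against 1.10 over all tested genes. Its interval lay above 1 in 11 of 13 replication genes and 2 of 21 mitosis genes, Bub1 and Top2a, and below 1 in Tyms and 13 mitosis genes. The share of all tested genes with an interval clear of 1 was not computed, so these counts are not shown to be particular to the members. Between int 3-2 and int 3-3 the mean chi-square per gene was 160, where sampling alone gives 1. The ratio was lowest in Ccnb2, 0.675 (95% interval 0.624 to 0.73), Tpx2, 0.736 (95% interval 0.68 to 0.798), and Ccnb1, 0.752 (95% interval 0.693 to 0.817). The summed replication level divided by the summed mitosis level was 0.756, 0.983 and 0.604 in int 3-1, int 3-2 and int 3-3, against 0.583, 0.577 and 0.577 in int 2-1, int 2-2 and int 2-3. All int 3 libraries were above int 2 on this ratio, int 3-3 by little.

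Among the G1 genes Cdkn1a fell, while Ccnd1 and the E-type cyclins were highest in int 3-2. Of these 8 genes 1 fell, 0 rose and 7 did not pass, where 6.70% of all tested genes fell and 8.64% rose. Cdkn1a, the p53-induced CDK inhibitor p21, stood at 55.6 FPKM in int 3-1, 53.5 in int 3-2 and 58.9 in int 3-3, against 74.5 in int 2-1, 73.7 in int 2-2 and 74.3 in int 2-3. All int 3 values were below all int 2 values (log2 difference -0.40, SE 0.051, adjusted p = 0.00525, limma; ratio of means 0.755). Cdkn1a passed in all 16 alternative settings. Cdkn1b, the inhibitor p27, averaged 30.8 ± 0.543 FPKM in int 3, against 29.8 ± 1.99 in int 2 (adjusted p = 0.61), and its difference of 0.048 changed sign with quantile normalization.

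Ccnd1, the D-type cyclin of growth factor and Wnt signalling, had the largest ratio of means among the members, 1.73. It stood at 46.1 FPKM in int 3-1, 62.6 in int 3-2 and 32.5 in int 3-3, against 26.6 in int 2-1, 27.5 in int 2-2 and 27.4 in int 2-3. Every int 3 library was above int 2, but int 3-2 was 1.93 (95% interval 1.86 to 1.998) times int 3-3, and the difference did not pass (log2 difference 0.72, SE 0.22, adjusted p = 0.0735, limma). It passed without int 3-2 (adjusted p = 0.045), without int 3-3 (0.0030) and with library weights per group (0.023). Ccnd2, its paralog, did not pass and its groups overlapped, at 26.3 FPKM in int 3-1, 24.9 in int 3-2 and 27.8 in int 3-3, against 27.4 in int 2-1, 28.7 in int 2-2 and 27.4 in int 2-3. The E-type cyclins, which start S phase with Cdk2, were highest in int 3-2. Ccne1 stood at 3.63 FPKM in int 3-1, 5.21 in int 3-2 and 2.68 in int 3-3, against 2.67 in int 2-1, 1.9 in int 2-2 and 2.27 in int 2-3 (adjusted p = 0.123, and 0.016 without int 3-3). Ccne2 averaged 2.19 ± 0.677 FPKM in int 3, against 1.69 ± 0.16 in int 2, with overlapping groups. The kinases varied less: int 3-2 over int 3-3 was 1.49 (95% interval 1.36 to 1.63) for Cdk2 and 1.32 (95% interval 1.27 to 1.38) for Cdk4, the partner of D-type cyclins.

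Other genes of the pathway were taken from lists of known function. These lists were chosen with earlier results of these data known, so they are not an independent check on the members. Of 56 tested mitosis genes outside the set 12 fell, 0 rose and 44 did not pass, where 6.70% of all tested genes fell. Of the 56 differences 53 were below 0 (43.2% of all tested genes had such a difference). The median of the 56 was -0.23, and 42 of them had int 3 wholly below int 2, as had 17.9% of all tested genes. Kif18a, named after its values were seen, reached FPKM 1 only in int 2 and was tested through that group alone. It is counted in the 56, the 53 and the 42. The 3 with the smallest p were Spc25, a kinetochore subunit (7.39 ± 0.347 FPKM in int 3, against 10.01 ± 0.48 in int 2, adjusted p = 0.0107), Pbk, a mitotic kinase (15.7 ± 1.2 FPKM in int 3, against 21.2 ± 0.663 in int 2, adjusted p = 0.0108), and Ckap2, a microtubule protein (4.09 ± 0.549 FPKM in int 3, against 6.31 ± 0.296 in int 2, adjusted p = 0.0143), all SD with n = 3 each, limma. The count was 0, 0 and 1 without int 2-1, int 2-2 and int 2-3, 0 without int 3-1, 14 without int 3-2, 30 (and 1 higher) without int 3-3 and 6 with TPM. Over all tested genes 615 to 642 passed without 1 int 2 library or without int 3-1. That total was 2633 without int 3-2, 4913 without int 3-3 and 1885 with TPM.

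Of 49 tested replication genes outside the set 3 fell, 0 rose and 46 did not pass, where 6.70% of all tested genes fell and 8.64% rose. The median difference was 0.037, against 0.034 over all tested genes. The 3 of the 49 that fell were Rfc2 and Rfc4, subunits of the clamp loader, and Prim1, the small subunit of primase. Prim1 stood at 10.8 FPKM in int 3-1, 9.74 in int 3-2 and 9.88 in int 3-3, against 14.5 in int 2-1, 13.6 in int 2-2 and 13.9 in int 2-3 (log2 difference -0.43, SE 0.060, adjusted p = 0.00711, limma). Rfc2 stood at 24.7 FPKM in int 3-1, 24.4 in int 3-2 and 25.6 in int 3-3, against 31.8 in int 2-1, 31.5 in int 2-2 and 31.6 in int 2-3 (log2 difference -0.33, adjusted p = 0.0059). Both were lower in every int 3 library, unlike the MCM genes. Without int 3-3, 10 of the 49 were higher and 5 lower. In that setting 4913 of the 12525 tested genes passed, 3124 of them higher. Summed over the 49, the level was 394 to 458 FPKM in int 3 and 432 to 442 FPKM in int 2, with int 3-2 highest and int 3-3 lowest of all libraries.

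Regulators of the G1 to S step mostly did not pass. Of 25 tested 1 rose, 1 fell and 23 did not pass, where 8.64% of all tested genes rose and 6.70% fell. E2f4, an E2F factor known mainly as a repressor in resting cells, rose (30.8 ± 2.44 FPKM in int 3, against 24.8 ± 1.22 in int 2, adjusted p = 0.0386, limma). Mycn, a Myc family factor, fell (0.746 ± 0.0731 FPKM in int 3, against 1.29 ± 0.102 in int 2, adjusted p = 0.021, limma). All int 3 values of Mycn were under FPKM 1, so it was tested only through int 2, where it was high. E2f3, E2f7 and Cdkn2a were below the filter. Among 14 tested genes of a list of Trp53 and its targets, Gadd45a, a growth arrest gene, fell and Btg2, an antiproliferative gene, rose. The other 12 did not pass, beside the same 6.70% fallen and 8.64% risen of all tested genes. Gadd45a stood at 25.4 FPKM in int 3-1, 24.7 in int 3-2 and 23.8 in int 3-3, against 34.2 in int 2-1, 32.1 in int 2-2 and 32.1 in int 2-3 (log2 difference -0.40, SE 0.051, adjusted p = 0.00545, limma). Btg2 stood at 48.8 FPKM in int 3-1, 48.7 in int 3-2 and 48.4 in int 3-3, against 42.2 in int 2-1, 42.1 in int 2-2 and 41.1 in int 2-3 (log2 difference 0.21, SE 0.041, adjusted p = 0.0206, limma). Both were tight within each group. The list had a median difference of -0.016.

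Markers of cell types that can hold dividing cells also differed between the groups. Beside the counts that follow, 6.70% of all tested genes fell and 8.64% rose. All 10 B cell genes fell, with a sum of 6.26 to 51.9 FPKM in int 3 and 179.9 to 186 FPKM in int 2, and int 3-2 was lowest. Of the germinal centre B cell list 1 of 4 tested genes fell, 3 did not pass and 4 were below the filter. The 1 that fell reached FPKM 1 only in int 2 and was tested through that group alone. The other 3 differences were above 0, and the median of the 4 was 0.15 on the log2 scale. The sum of this list was 10.5 to 11.7 FPKM in int 3 and 11.8 to 12.3 FPKM in int 2. T cell genes fell in 4 of 7 tested (8.45 to 17.3 FPKM in int 3 and 27.5 to 29.4 FPKM in int 2) and macrophage genes rose in 6 of 8 (173 to 188 FPKM in int 3 and 112 to 118 FPKM in int 2). Among these immune genes Fcer2a and Il7r reached FPKM 1 only in int 2, and Fcgr1 only in int 3. They are named after their values were seen. No gene of the 8 of general epithelium passed in either direction (4277 to 5525 FPKM in int 3 and 4853 to 4898 FPKM in int 2). Of 12 crypt progenitor genes 2 fell, and their sum was 140.4 FPKM in int 3-1, 176 in int 3-2 and 104 in int 3-3, against 146 in int 2-1, 146 in int 2-2 and 148 in int 2-3. The crypt sum thus had the order of the replication genes within int 3. The part of any of these cell types in the results above was not tested.

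Epithelium, smooth muscle and macrophage markers were present in every library, while the 7 squamous genes summed to 0.671 to 1.03 FPKM in int 3 and 0.367 to 0.676 FPKM in int 2 and Krt6a was listed at 0 in all 6. Per 1000 FPKM of the epithelial list, the mitosis genes held 63.8 FPKM in int 3-1, 67.2 in int 3-2 and 58.9 in int 3-3, against 78.4 in int 2-1, 76.46 in int 2-2 and 76.96 in int 2-3. The replication genes held 48.2 FPKM in int 3-1, 66.1 in int 3-2 and 35.6 in int 3-3, against 45.7 in int 2-1, 44.1 in int 2-2 and 44.4 in int 2-3. Per epithelial FPKM the mitosis genes were below int 2 in every int 3 library, and their order within int 3 was that of the replication genes. Smooth muscle genes summed to 3332 to 3886 FPKM in int 3 and 4123 to 4137 FPKM in int 2, and 2 of 7 fell, beside 6.70% of all tested genes.

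**Figure D4:**
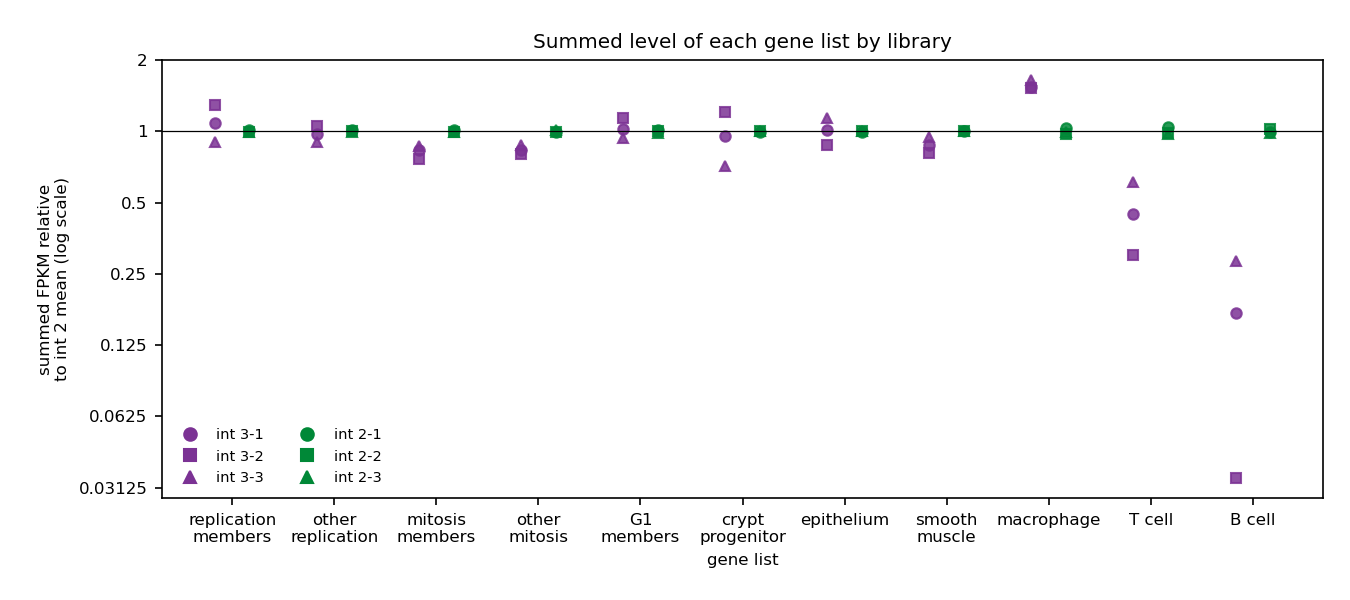
Points are the summed FPKM of each gene list in each library divided by the int 2 mean, on a log scale, with int 3 left (purple) and int 2 right (green) in each column. The mitosis lists lie below 1 in all 3 int 3 libraries, the replication and crypt lists lie on both sides of 1, and B cell genes are lowest in int 3-2.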

How the data were processed

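Per the labels' protocols, RNA was extracted with TRIzol and the library kit was VAHTS Universal V10. The authors deposited FPKM values for 35434 genes and 6 libraries, a unit taken from the table's name and from its values. The submitters' processing notes name GRCm39 as the build. The aligner, counter, annotation, strand setting and the handling of fragments shared with pseudogenes or overlapping genes are not given in the sources used here. Column names match the sample titles.

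The 42 members and all gene lists were chosen with earlier results of these data known. A gene was tested if 3 libraries or more reached FPKM 1, which held for 12525 genes and all members. limma 3.58.1 (R 4.3.3) was run on log2(FPKM + 1) for int 3 minus int 2 (eBayes with trend, two-sided, Benjamini-Hochberg adjustment over all tested genes). Adjusted p-values come from this fit unless the sentence names another setting. The pseudocount makes log2 differences too small where FPKM is low, so ratios are those of mean FPKM. With 3 libraries against 3 an exact permutation test cannot go below 0.1, and none was used. Whole fragments were recovered from the steps of the FPKM values (12508 of 12525 tested genes, 99.9%, at a relative tolerance of 1e-06) and served for depth, exact intervals and a voom alternative, never for the main test. Intervals and depth cover counting error only. Named were all members, the 3 genes of each other list with the smallest p in each direction among those that passed, marker lists by their sums, and Hoxb13 and Epcam as markers of position and epithelium; a gene outside this rule is marked as chosen with its values in view. limma's fit was tested on simulated data. Scaling, filters, pseudocounts, library weights, a replicate block and leaving out each library were tried as alternatives. Tables and figures were made with Python 3.11.15, pandas 2.3.3, scipy 1.17.1 and matplotlib 3.10.9.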

Additional observations from a re-analysis of the deposited data

How the results depend on the processing

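The 16 alternatives were 2 smaller pseudocounts (0.1 and 0.01), dropping the filter or raising it to 5 FPKM on average, scaling to TPM, by median of ratios or by quantiles, a replicate block, library weights per group, voom on whole fragments, and leaving out each library. Of 667 values of single members under them, 588 kept direction and side of the threshold, 38 no longer passed, 17 newly passed and 24 changed sign, all 24 in genes that did not pass. Mitosis genes numbered 5 with TPM, against 8. Same-numbered libraries did not deviate together (correlations -0.022 to 0.0041), and neither did pairs of different number (-0.032 to 0.045). This does not exclude that same-numbered libraries share an animal or a batch. With the replicate block 889 genes passed, 4 members were lower and 3 mitosis genes passed. Weights per group gave 1 member higher and 2 passing G1 genes, Ccnd1 being added. With 1 library left out, 615 to 4913 genes passed, 0 to 7 members were higher, 2 to 14 lower, and 1 to 12 mitosis, 0 to 6 replication and 1 to 3 G1 genes passed. Of the 56 mitosis genes outside the set 12 were lower, against 6 with no filter, 6 with TPM, 1 with the block, 7 with weights and 18 with either other scaling. The cause was not tested.

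Signs changed as follows. With TPM Gins2 was at 0.060 and Ccna2 at 0.0070. Median-of-ratios scaling gave -0.016 for Mcm7, -0.022 for Cdt1 and -0.031 for Kif23. Quantile normalization gave -0.0096 for Cdkn1b, -0.033 for Mcm7, -0.036 for Cdt1 and -0.050 for Kif23. With 1 library left out the range was -0.068 to 0.12 for Cdt1, -0.016 to 0.039 for Kif23, -0.027 to 0.019 for Gins2, -0.039 to 0.16 for Cdk4, -0.12 to 0.35 for Mcm2, -0.10 to 0.23 for Mcm5, -0.088 to 0.15 for Mcm7 and -0.042 to 0.18 for Pcna. Depth limits Cdc6 and Ccne1 and Ccne2 most, at 128 to 405 fragments in a library.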

Other observations

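Within the crypt progenitor list the members parted, and the genes named here were chosen after their values were seen. Of the 12 differences 6 were below 0 and 6 above. Lgr5 and Ephb3 lay below int 2 in every int 3 library without passing (adjusted p = 0.0911 and 0.0835, limma). Sox9 lay above int 2 in every int 3 library, also without passing (adjusted p = 0.175, limma). Ascl2, a transcription factor of intestinal stem cells, stood at 3.85 FPKM in int 3-1, 3.72 in int 3-2 and 3.33 in int 3-3, against 7.89 in int 2-1, 8.55 in int 2-2 and 9.17 in int 2-3 (log2 difference -1.04, SE 0.078, adjusted p = 9.7e-04, limma). Axin2, a feedback inhibitor and target of Wnt signalling, stood at 4.93 FPKM in int 3-1, 5.26 in int 3-2 and 4.69 in int 3-3, against 9.83 in int 2-1, 9.79 in int 2-2 and 9.15 in int 2-3 (log2 difference -0.83, SE 0.063, adjusted p = 9.7e-04, limma). Both fell, and the int 3 libraries lay close together. Slc12a2, a chloride cotransporter of the crypt, did not pass and had the order of the replication genes within int 3, at 49.4 FPKM in int 3-1, 63.6 in int 3-2 and 36.5 in int 3-3, against 48.1 in int 2-1, 47.3 in int 2-2 and 46.995 in int 2-3. Cd44, an adhesion receptor, had the same order without passing, at 13.7 FPKM in int 3-1, 18.2 in int 3-2 and 8.46 in int 3-3, against 8.81 in int 2-1, 8.71 in int 2-2 and 9.36 in int 2-3. Of surface colonocyte genes 3 of 8 fell, Aqp8, Slc26a3 and Slc9a3, where 6.70% of all tested genes fell. The other 5 did not pass, with Car4 and Muc3 below 0 and Car1, Krt20 and Ceacam1 above 0. Ceacam1 was higher in every int 3 library (289 ± 71.6 FPKM in int 3, against 198 ± 3.08 in int 2).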
